A study of Homo sapiens with 14 samples.

Results

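Chemokines are small secreted proteins that guide the migration of leukocytes, and chemokine receptors are the G protein-coupled receptors that read these gradients. The members described here were the protein-coding genes of chromosomes 1 to 22 named as a numbered CCL, CXCL, XCL or CX3CL ligand or as a numbered CCR, CXCR, XCR, CX3CR or ACKR receptor. The rule used names and positions only and found 64 genes of 19111 autosomal protein-coding genes, of which 43 encode ligands and 21 encode receptors. By position they formed 11 clusters, in which neighbouring gene bodies lay within 500 kb of each other, with 46 members, and 18 single genes.

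Chromatin accessibility was profiled by Omni-ATAC, in which a transposase inserts adapters into open chromatin, in MM.1S and RPMI8226, established cell lines of multiple myeloma (MM), a plasma cell cancer. The 9 MM.1S libraries were 3 of monoculture (MONO), 3 of the upper transwell (TSW), where MM cells shared medium but not contact with HS5 cells, and 3 of the lower chamber (CO), in contact with HS5. The 5 RPMI8226 libraries were 1 MONO, 2 TSW and 2 CO. HS5 is an established line of human bone marrow stroma, used here as the model of that stroma, and MM cells were sorted from it after 48 h, with a small HS5 remainder noted by the study in CO. No other agent or allele was given in the labels, and nothing there states whether libraries of a group came from separate cultures.

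The deposited data were 1 list of reference peaks for each line, with 72802 peaks for MM.1S and 79969 for RPMI8226. A reference peak is an accessible region that the authors called in at least 3 libraries of its line, and each has a whole number that was read as its support, the number of libraries in which it was called. The lists pool MONO, TSW and CO and hold no read count, so the reads behind a peak are unknown and no test between lines or culture conditions could be made. Library sizes listed by the study, not used here, were unequal, with a MONO library of MM.1S far below all others and the RPMI8226 libraries below the remaining MM.1S ones, and their part in support and in the differences between lines was not tested. All comparisons below are descriptions, and their 95% Wilson intervals cover counting error only. Members of a cluster are neighbours and are not independent. A gene without a reference peak may still have had a peak in fewer than 3 libraries.

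In lymphocytes and plasma cells, CXCR4 holds cells in bone marrow that expresses its ligand CXCL12, whereas CCR7 and CXCR5 lead cells to lymph node zones and CCR9 and CCR10 to mucosa and skin. Inflammatory ligands such as CCL2, CCL3 and CXCL8 are made on stimulation and attract myeloid cells. CCL3 and CCL4 are known as products of MM cells that act on bone-resorbing osteoclasts. Atypical receptors (ACKR) bind chemokines without G protein signalling and remove them.

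A member had a promoter peak when a reference peak reached within 2500 bp of any annotated start. In MM.1S, 36 of 64 members had one (56.2%, interval 44.1 to 67.7%), below the 77.9% of all autosomal protein-coding genes. RPMI8226 had one at 31 members (48.4%, 36.6 to 60.4%), against 73.0% of all genes. Both lines had a promoter peak at 23 members (35.9%, background 69.8%), overlapping at 22 of them, and neither line had one at 20 members (31.2%, background 19.0%). MM.1S alone had one at 13 members (20.3%, 12.3 to 31.7%, background 8.09%), and RPMI8226 alone at 8 members (12.5%, 6.47 to 22.8%, background 3.18%). Without the 10 neighbours from CCL5 to CCL4L2, of which 7 were in MM.1S only, the MM.1S-only share was 11.1% (6 of 54, 5.19 to 22.2%), an interval that holds the background. With that cluster included, 21 of the 44 members with any promoter peak had it in 1 line only. Of all genes, 13335 had a promoter peak in both lines, 1546 in MM.1S only and 608 in RPMI8226 only.

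Among members with a promoter peak, the share with one called in every library was below that of all genes. Genes of similar CpG content are compared further below. In MM.1S, 21 members had a promoter peak called in all 9 libraries (32.8%, background 70.2%), and in RPMI8226, 25 had one called in all 5 (39.1%, background 67.6%). Of members with a promoter peak in the line, this was 58.3% in MM.1S (interval 42.2 to 72.9%) and 80.6% in RPMI8226 (63.7 to 90.8%), against 90.2% and 92.6% of all genes with one. Those called in every library of both lines numbered 12 (18.8%, background 63.0%). They included the receptors CXCR4, CCR7, CCR10, CXCR6, CCR1 and ACKR2 and the ligands CXCL16, CCL1, CCL5, CCL4 and CCL25. No peak of CCR10, CXCR6 or CCL1 lay over an annotated start in either line. When the promoter window was widened to 5000 bp, 36 members had a peak in both lines and 8 in MM.1S only, so the split depends on the window. With only the canonical start of each gene, 8 were in MM.1S only and 4 in RPMI8226 only. With peaks in every library only, 12 were in both, 9 in MM.1S only and 13 in RPMI8226 only.

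**Figure D1:**
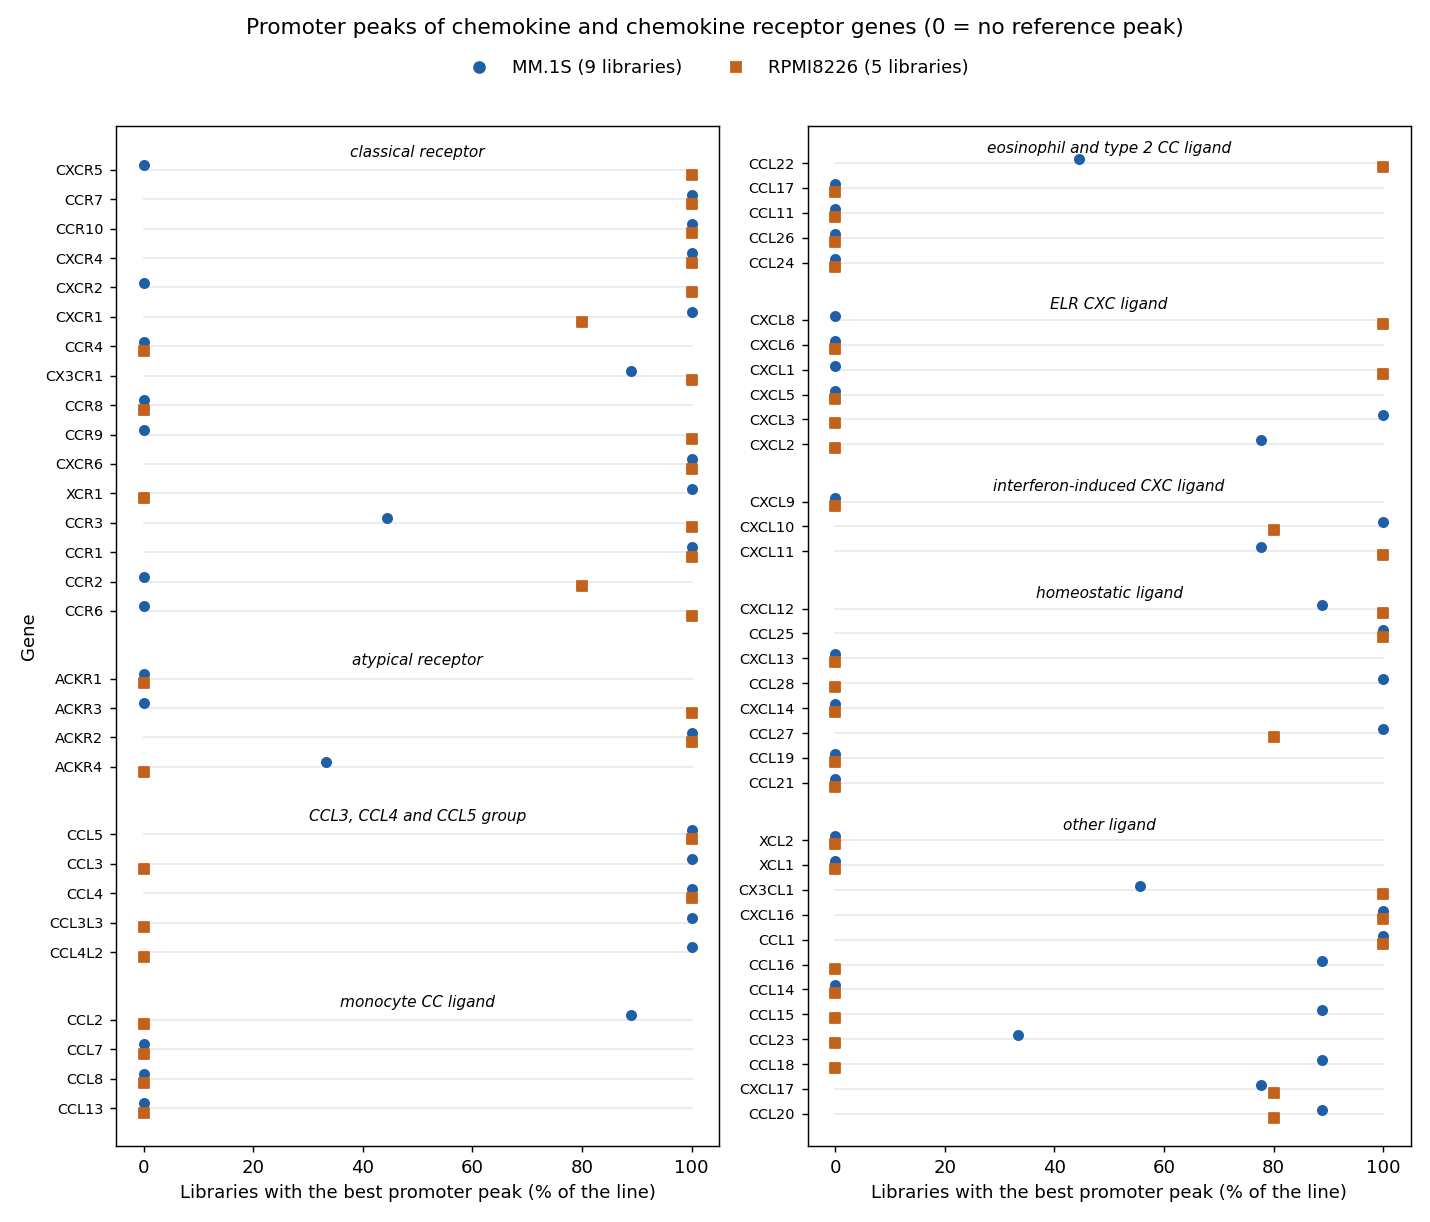
Support of the best promoter peak of 63 of the 64 members, as a percent of the libraries of the line (x axis), for MM.1S (circles, 9 libraries) and RPMI8226 (squares, 5 libraries), by role; 0 means no reference peak. Receptors show more squares at 100% than circles, and the ligands CCL3, CCL3L3, CCL4L2, CXCL3 and CCL28 have a circle at 100% and a square at 0.

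By role, more receptors had a promoter peak in RPMI8226 than in MM.1S, and more ligands in MM.1S than in RPMI8226, against 77.9% and 73.0% of all genes in MM.1S and RPMI8226. Of 21 receptors, 12 had a promoter peak in MM.1S (57.1%, 36.5 to 75.5%) and 16 in RPMI8226 (76.2%, 54.9 to 89.4%). Of 43 ligands, 24 had one in MM.1S (55.8%, 41.1 to 69.6%) and 15 in RPMI8226 (34.9%, 22.4 to 49.8%). Line-only receptors were 2 in MM.1S (9.52%) and 6 in RPMI8226 (28.6%), and line-only ligands were 11 (25.6%) and 2 (4.65%). Of all genes, 8.09% and 3.18% were line-only. With only peaks over a start counted, the receptors were nearly level, with 9 in MM.1S (42.9%) and 10 in RPMI8226 (47.6%). The ligands stood at 16 (37.2%) and 9 (20.9%), against 68.6% and 60.9% of all genes. Receptors with a peak over a start in 1 line only were 3 in MM.1S (14.3%) and 4 in RPMI8226 (19.0%), against 9.79% and 2.15% of all genes. The difference between receptors and ligands was not tested, since the genes are not replicates. Of the 11 MM.1S-only ligands, 7 lie in the single cluster from CCL5 to CCL4L2.

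Among the 17 classical receptors, 9 had a promoter peak in both lines. CXCR4 had a 1871 bp MM.1S peak in 9 of 9 libraries (chr2:136116552-136118422) and a second of 429 bp in 8 of 9 (chr2:136119002-136119430). Its RPMI8226 promoter peak spanned 1025 bp in 5 of 5 libraries (chr2:136116767-136117791) and overlapped only the first. The 250 bases before the canonical CXCR4 start, printed here because the lines differ over them, lay wholly within the MM.1S peak, with 250 of 250 bases, and had 0 bases in an RPMI8226 peak, which lay over another annotated start. They hold a TATAAA match at -30 to -25 (capitals), counted in bases from the start, in RefSeq sequence of build GRCh38.p14, minus strand, chr2:136118150-136118399.
CXCR4: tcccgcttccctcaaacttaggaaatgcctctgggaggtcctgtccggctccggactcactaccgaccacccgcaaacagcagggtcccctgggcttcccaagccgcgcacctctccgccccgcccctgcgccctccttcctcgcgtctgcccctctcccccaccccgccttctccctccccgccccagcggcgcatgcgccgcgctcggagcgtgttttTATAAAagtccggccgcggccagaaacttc

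CCR7, the lymph node homing receptor, had a 1237 bp peak in 9 of 9 MM.1S libraries and a 595 bp peak in 5 of 5 RPMI8226 libraries. Both lay over an annotated start downstream of the canonical one, and neither list had a peak within 2500 bp of the canonical start. CCR1, a receptor of CCL3 and CCL5, had promoter peaks in every library of both lines. CX3CR1, the fractalkine receptor, had 8 of 9 and 5 of 5, and CXCR1, a receptor of CXCL8, had 9 of 9 and 4 of 5. CCR10 and CXCR6 also reached 9 of 9 and 5 of 5. All promoter peaks of CCR10 lay in promoter windows of PLEKHH3 or CNTNAP1 as well, and the shared CXCR6 peak lay in that of FYCO1, so they cannot be assigned to 1 gene. CCR3, the eotaxin receptor, had 4 of 9 in MM.1S and 5 of 5 in RPMI8226, and was the only member of the 23 whose promoter peaks in the lines did not overlap.

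RPMI8226 alone had promoter peaks at 5 classical receptors. CXCR5, which guides B cells into follicles, had a 446 bp peak over its start in 5 of 5 libraries (chr11:118883660-118884105), and CXCR2, a second CXCL8 receptor, a 549 bp peak over an annotated start in 5 of 5 (chr2:218130530-218131078). CCR6, the receptor of CCL20, had a 724 bp peak in 5 of 5 at -677 bp, where negative distances lie upstream of the nearest annotated start. CCR9, the gut homing receptor, had a 210 bp peak in 5 of 5 at -2496 bp, at the edge of the window. CCR2, the receptor of CCL2, had a 377 bp peak in 4 of 5 at -293 bp. MM.1S had no promoter peak at these receptors, although its list held 6 peaks in the window of CXCR5, 5 of them shared, with the window being the gene body plus 20 kb on each side.

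XCR1, the receptor of XCL1, was the reverse case among classical receptors. It had MM.1S peaks over 2 annotated starts, a 908 bp peak in 9 of 9 libraries and a 630 bp peak in 8 of 9, and no RPMI8226 promoter peak. CCR4 and CCR8 had none in either line. The 4 atypical receptors fell into all 4 patterns. ACKR2 had 9 of 9 and 5 of 5 but shared its peaks with the promoter of HIGD1A, ACKR3, a scavenger of CXCL12, had only a 212 bp RPMI8226 peak in 5 of 5 libraries, ACKR4 only a 341 bp MM.1S peak in 3 of 9, and ACKR1 had none.

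The CXCL8 group of neutrophil-attracting ligands carry the ELR amino acid motif, and its 6 members lie together on chromosome 4. None had a promoter peak in both lines. MM.1S had a 1237 bp peak over the start of CXCL3 in 9 of 9 libraries (chr4:74038177-74039413) and a 419 bp peak over that of CXCL2 in 7 of 9 (chr4:74098953-74099371). RPMI8226 had a 330 bp peak over the start of CXCL8 in 5 of 5 (chr4:73740444-73740773) and a 171 bp peak at -1331 bp from CXCL1 in 5 of 5 (chr4:73867892-73868062). CXCL5 and CXCL6 had none. Within 2500 bp, the lists of MM.1S and RPMI8226 thus named different genes of the group. Within 5000 bp, CXCL8, CXCL1 and CXCL3 had a peak in both lines, through MM.1S peaks at -4891 bp from CXCL8 (8 of 9) and -4766 bp from CXCL1 (6 of 9) and an RPMI8226 peak at -3953 bp from CXCL3 (5 of 5), and CXCL6 had 1 in RPMI8226 at -3597 bp (4 of 5).

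The 250 bases before each start are shown for the 4 genes with a promoter peak, because CXCL1, CXCL2 and CXCL3 are paralogs with a stretch in common and the genes differ in which line has the peak. They come from RefSeq (GRCh38.p14): CXCL1 at chr4:73869143-73869392 and CXCL8 at chr4:73740319-73740568 on the plus strand, CXCL2 at chr4:74099196-74099445 and CXCL3 at chr4:74038690-74038939 on the minus strand. Capitals mark the NF-kB consensus in CXCL1, CXCL2 and CXCL3, on both strands, and AP-1 (TGACTCA) and TATAAA in CXCL8. The NF-kB consensus sought was GGGRNNYYCC, with R for A or G and Y for C or T. CXCL8 holds TGGAATTTCC, which differs from it only at the first base and is therefore unmarked. A missing mark thus does not mean that an NF-kB site is absent.
CXCL1: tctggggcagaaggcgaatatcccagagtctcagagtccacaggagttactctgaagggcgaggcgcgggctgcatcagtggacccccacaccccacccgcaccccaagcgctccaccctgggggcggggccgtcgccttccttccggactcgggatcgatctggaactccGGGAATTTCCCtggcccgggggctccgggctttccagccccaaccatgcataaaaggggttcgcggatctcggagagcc
CXCL2: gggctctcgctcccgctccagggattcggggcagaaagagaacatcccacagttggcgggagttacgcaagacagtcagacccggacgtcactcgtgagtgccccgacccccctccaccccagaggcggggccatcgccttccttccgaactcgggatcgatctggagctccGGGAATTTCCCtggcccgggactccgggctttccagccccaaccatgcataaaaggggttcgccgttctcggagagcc
CXCL3: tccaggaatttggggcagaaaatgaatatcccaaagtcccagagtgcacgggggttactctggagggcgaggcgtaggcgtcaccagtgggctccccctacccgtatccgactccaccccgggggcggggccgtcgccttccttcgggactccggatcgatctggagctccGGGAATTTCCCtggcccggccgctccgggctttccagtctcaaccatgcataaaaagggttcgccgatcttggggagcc
CXCL8: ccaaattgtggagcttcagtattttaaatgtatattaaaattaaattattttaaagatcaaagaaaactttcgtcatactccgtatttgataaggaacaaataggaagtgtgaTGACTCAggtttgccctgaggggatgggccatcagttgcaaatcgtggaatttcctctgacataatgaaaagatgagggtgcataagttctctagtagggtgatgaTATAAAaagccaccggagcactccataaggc

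CXCL1, CXCL2 and CXCL3 hold the same 11 bases, GGGAATTTCCC, between -79 and -68. Over these 250 bases CXCL1 was 81.4% identical to CXCL3 and 68.0% to CXCL2, and CXCL2 was 73.3% identical to CXCL3, whereas CXCL1 and CXCL8 were 42.8% identical. MM.1S peaks covered 250 bases of the CXCL3 stretch, 176 of CXCL2 and 0 of CXCL1. The RPMI8226 peaks covered 0 bases of all 3 and the 125 nearest the start of CXCL8. Its TATAAA match at -31 to -26 lies within that peak and its AP-1 match at -137 to -131 just outside it. The promoter windows of CXCL1, CXCL2 and CXCL3 were 94.1%, 92.4% and 95.4% unique in stretches of 31 bases. A matched sequence is a description and not a site of binding.

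The starts of the CCL3, CCL4 and CCL5 group were all covered in MM.1S. CCL3, CCL4, CCL5, CCL3L3 and CCL4L2 each had a peak over the start in 9 of 9 libraries. In RPMI8226, CCL5 had an 823 bp peak and CCL4 a 511 bp peak in 5 of 5 libraries, and CCL3, CCL3L3 and CCL4L2 had none. CCL3L3 and CCL4L2 are near-identical copies of CCL3 and CCL4, and the authors removed reads that map to several places. The share of unique 31-base stretches was 74.5% for CCL3, 71.8% for CCL3L3, 53.6% for CCL4 and 54.1% for CCL4L2, against a median of 92.3% over the members, so the split of reads between copies is uncertain. CCL4, with one of the lowest shares, had its peak in both lines, and the part of uniqueness in the line-only peaks was not tested.

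The CCL3 and CCL3L3 stretches are shown because their peaks are only in MM.1S and their sequences are 91.0% identical. They lie on the minus strand at chr17:36090144-36090393 and chr17:36196759-36197008 (RefSeq, GRCh38.p14), all 250 bases of each within an MM.1S peak. Capitals mark TATAAA at -29 to -24.
CCL3: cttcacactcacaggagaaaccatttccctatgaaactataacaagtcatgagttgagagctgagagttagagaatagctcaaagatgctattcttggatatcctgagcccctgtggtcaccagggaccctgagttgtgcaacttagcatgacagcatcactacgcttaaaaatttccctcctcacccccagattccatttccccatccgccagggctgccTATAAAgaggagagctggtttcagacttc
CCL3L3: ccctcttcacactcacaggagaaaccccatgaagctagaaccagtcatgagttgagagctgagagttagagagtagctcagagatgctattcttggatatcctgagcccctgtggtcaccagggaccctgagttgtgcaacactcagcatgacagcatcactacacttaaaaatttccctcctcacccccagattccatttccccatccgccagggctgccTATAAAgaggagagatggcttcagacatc

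Of the 4 monocyte-attracting CC ligands, only CCL2 had a promoter peak, a 585 bp peak over the start in 8 of 9 MM.1S libraries (chr17:34255016-34255600), with none in RPMI8226. Upstream, the lists shared peaks at -5462 bp (MM.1S, 9 of 9) and -5492 bp (RPMI8226, 5 of 5) from CCL2. CCL7, CCL8 and CCL13 had none. Among the eosinophil and type 2 ligands, CCL22 had 4 of 9 and 5 of 5, while CCL11, CCL17, CCL24 and CCL26 had none. The interferon-induced ligands CXCL10 (9 of 9 and 4 of 5) and CXCL11 (7 of 9 and 5 of 5) had promoter peaks in both lines, and CXCL9 had none.

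Of 8 homeostatic ligands, 3 had promoter peaks in both lines. CXCL12, the ligand of CXCR4, had a 1012 bp MM.1S peak in 8 of 9 libraries and a 1662 bp RPMI8226 peak in 5 of 5, both over an annotated start. CCL25, which acts on CCR9, had a peak over an annotated start in 9 of 9 and 5 of 5. CCL27, a skin ligand of CCR10, had 9 of 9 and 4 of 5, in the promoter window of a neighbouring gene as well. CCL28, the mucosal ligand of CCR10, had a 463 bp peak in 9 of 9 MM.1S libraries only. It lay over an annotated start inside the gene, downstream of the canonical start. CXCL13, CXCL14, CCL19 and CCL21 had none, although the CXCL13 window held 7 peaks in MM.1S, 5 of them shared, and 6 in RPMI8226, all shared.

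The other 12 ligands divided by place. CXCL16, the ligand of CXCR6, and CCL1 had 9 of 9 and 5 of 5, the former in the promoter window of ZMYND15 as well. No CCL1 peak lay over its start, the nearest being at 1286 bp (MM.1S) and -649 bp (RPMI8226). CCL20 had 8 of 9 and 4 of 5, CXCL17 7 of 9 and 4 of 5, and CX3CL1 5 of 9 and 5 of 5. MM.1S alone had promoter peaks at CCL15, CCL16 and CCL18 (8 of 9 each) and at CCL23 (3 of 9), all in the CCL5 to CCL4L2 cluster. None of these peaks lay within 2500 bp of the canonical start. The CCL15 peak lay over another annotated start, and the CCL23 peak lay inside the gene. Those of CCL16 and CCL18 lay past the end of the gene, at 1900 and 2267 bp from the nearest annotated start. XCL1, XCL2 and CCL14 had none. XCL2 had the lowest share of unique sequence among the members, 44.4%.

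Ligands and their receptors did not always have peaks in the same lines. CXCR4 and CXCL12, CXCR6 and CXCL16, and CX3CR1 and CX3CL1 had promoter peaks on both sides in both lines. The CXCL16 peaks and the shared CXCR6 peak also lay in promoter windows of other genes. The CX3CL1 peaks lay over no start, at 85 bp (MM.1S) and 225 bp (RPMI8226) from an annotated start other than the canonical one. CCR7 had peaks in both lines while its ligands CCL19 and CCL21 had none, and CXCR5 had one in RPMI8226 while CXCL13 had none. In RPMI8226, CXCR1 and CXCR2 were joined by CXCL8 and CXCL1, whereas in MM.1S CXCL2 and CXCL3 had promoter peaks and CXCR2, their main receptor, had none. CCL2 had its promoter peak in MM.1S and its receptor CCR2 in RPMI8226. CCR4 had none although its ligand CCL22 had one in both lines, and CCR8 had none although CCL1 did. Accessibility at a start is not a measure of expression.

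Although the lists pool the conditions, support limits where a peak can come from. With 3 libraries in each MM.1S condition, a peak in 7 or more libraries was called in at least 1 library of every condition. Of all genes with a promoter peak in MM.1S, 90.2% had one in all 9 libraries, which meets this limit. Among members, the limit was met by the best promoter peak of 31 of 36. The other 5 were CCL22 (4 of 9), CX3CL1 (5 of 9), CCL23 (3 of 9), CCR3 (4 of 9) and ACKR4 (3 of 9). CCL23 and ACKR4 alone, at 3 libraries, could have come from a single condition. In RPMI8226, 25 of 31 members had a peak in all 5 libraries, MONO included (80.6%, against 92.6% of all genes with one). The others, CXCL17, CXCR1, CCL20, CCR2, CXCL10 and CCL27, had 4 of 5. No RPMI8226 reference peak can come from CO alone, which had 2 libraries.

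A remainder of HS5 cells was noted in CO, and genes such as CXCL12, CCL2 and CXCL8 are known to be active in stroma. Of 18 stromal markers, MM.1S had a promoter peak at 11 (61.1%, all genes 77.9%) and RPMI8226 at 8 (44.4%, all genes 73.0%). COL1A1, COL6A1, FN1 and PDGFRB had 9 of 9 and 5 of 5, whereas COL3A1, COL6A2, COL6A3, LUM, THY1 and FAP had none in either. All 12 plasma cell markers, among them SDC1, TNFRSF17 and IRF4, had one in both lines. CCL2, at 8 of 9, and CXCL12, at 8 of 9 and 5 of 5, were called in MONO and TSW libraries too, as was CXCL8 at 5 of 5. The part of HS5 cells in any of these peaks was not tested.

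Within gene bodies plus 20 kb, the members held 181 MM.1S and 217 RPMI8226 peaks. Of the MM.1S peaks, 71.8% overlapped a peak of the other list (interval 64.9 to 77.9%, background 64.6%), and of the RPMI8226 peaks 62.2% did (55.6 to 68.4%, background 62.3%). Peaks in every library made up 55.2% in MM.1S (background 52.0%) and 65.4% in RPMI8226 (background 64.3%). Distal peaks, outside every promoter window, made up 58.6% in MM.1S (background 60.8%) and 65.0% in RPMI8226 (background 63.8%). Of these, 74.5% of 106 were shared around members in MM.1S (65.5 to 81.9%, all distal peaks 59.9%) and 58.2% of 141 in RPMI8226 (49.9 to 66.0%, 54.1%). Among window peaks called in every library, 84.0% of 100 were shared in MM.1S (background 81.4%) and 70.4% of 142 in RPMI8226 (background 74.4%). The members' own promoter peaks were shared at 61.2% of 49 in MM.1S (47.2 to 73.6%) and 68.9% of 45 in RPMI8226 (54.3 to 80.5%). These intervals hold the 71.9% and 76.6% of all promoter peaks. MM.1S peaks are wider than RPMI8226 peaks in the whole lists, with medians of 536 and 363 bp, which bears on any overlap.

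Members are short genes, with a median length of 5.85 kb against 27.9 kb for all genes. They held a median of 3 window peaks in MM.1S and 4 in RPMI8226, the medians of all genes being 4 and 4. Per 100 kb of window the medians were 6.38 and 7.41 against 4.52 and 4.55. A peak in overlapping windows was counted for each gene, and genes of similar length were not compared. No window peak was found at 2 members in MM.1S (ACKR3 and CXCL5, 3.12%, background 6.7%) and at 6 in RPMI8226 (CCL16, CCL14, CCL3L3, CCL4L2, CXCL5 and CXCL2, 9.38%, background 7.88%). CXCL5 alone had none in either list. CCR3 had the most in both, with 11 MM.1S and 21 RPMI8226 peaks, 9 of them shared in each, but it is the longest member (135817 bp) and its body contains CCR1. Per 100 kb of window CCR3 had 6.26 in MM.1S, just under the members' median, and 11.9 in RPMI8226, where CCL1 had 18.6.

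**Figure D2:**
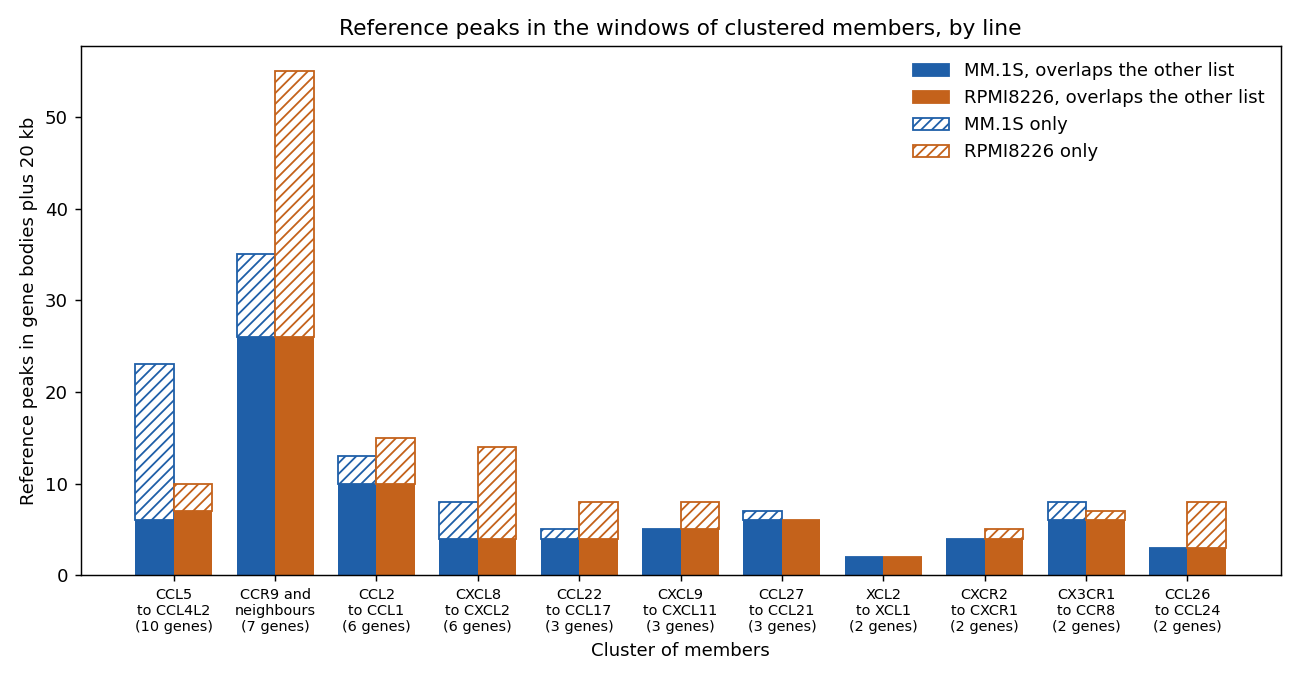
Number of reference peaks in the joined windows (gene bodies plus 20 kb) of each of the 11 clusters, for MM.1S (blue) and RPMI8226 (orange), with peaks that overlap the other list filled and line-only peaks hatched. The CCL5 to CCL4L2 cluster has 17 MM.1S-only and 3 RPMI8226-only peaks, and the receptor cluster of CCR9 and its neighbours has 9 and 29.

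From CCL5 to CCL4L2 (chr17:35871491-36212878, 10 members), MM.1S had 23 peaks, 6 shared, and promoter peaks at 9 members, whereas RPMI8226 had 10 peaks, 7 shared, and promoter peaks at CCL5 and CCL4 only. Around CCL3L3 the 10 MM.1S peaks were all line-only and RPMI8226 had 0. From CCL2 to CCL1 (6 members), the lists held 13 and 15 peaks with 10 shared in each. From CXCL8 to CXCL2 (chr4:73740519-74099196), MM.1S had 8 peaks and RPMI8226 14, with 4 shared in each list.

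**Figure D3:**
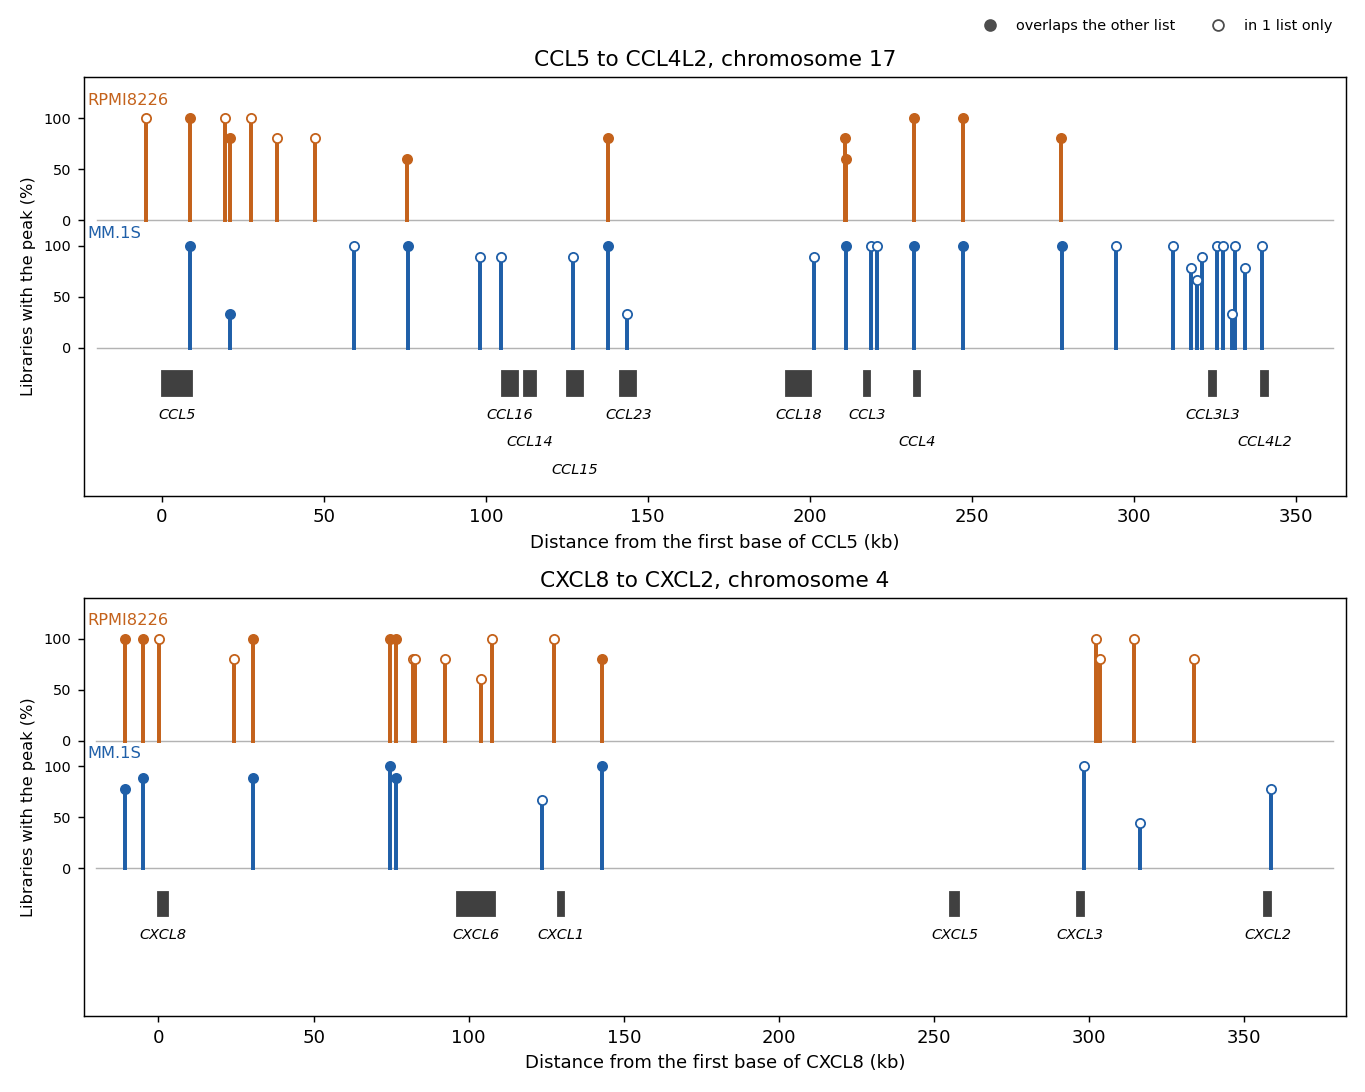
Maps of the CCL5 to CCL4L2 cluster (top) and the CXCL8 to CXCL2 cluster (bottom), with distance from the first base of the leftmost member in kb on the x axis and the percent of libraries with each peak on the y axis, RPMI8226 above MM.1S and gene bodies as dark boxes. Filled points overlap the other list and open points do not, and peaks between windows are drawn too (4 of each line in the upper map, 4 in RPMI8226 and 2 in MM.1S in the lower). The right end of the upper map, around CCL3L3 and CCL4L2, has open MM.1S points only, and in the lower map the peaks at CXCL3, CXCL2 and CXCL8 are open.

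The receptor cluster that begins at CCR9 (chromosome 3, 7 members) had the most peaks, 35 in MM.1S and 55 in RPMI8226. Of these 26 were shared in each list, leaving 9 MM.1S-only and 29 RPMI8226-only peaks. Per 100 kb of window this was 7.76 in MM.1S and 12.2 in RPMI8226. The RPMI8226-only peaks included the promoter peaks of CCR9, CCR2 and CCR3. Taken over all clusters, 67.3% of 113 MM.1S peaks and 55.8% of 138 RPMI8226 peaks were shared, and around single genes 79.4% of 68 and 73.4% of 79 were.

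**Figure D4:**
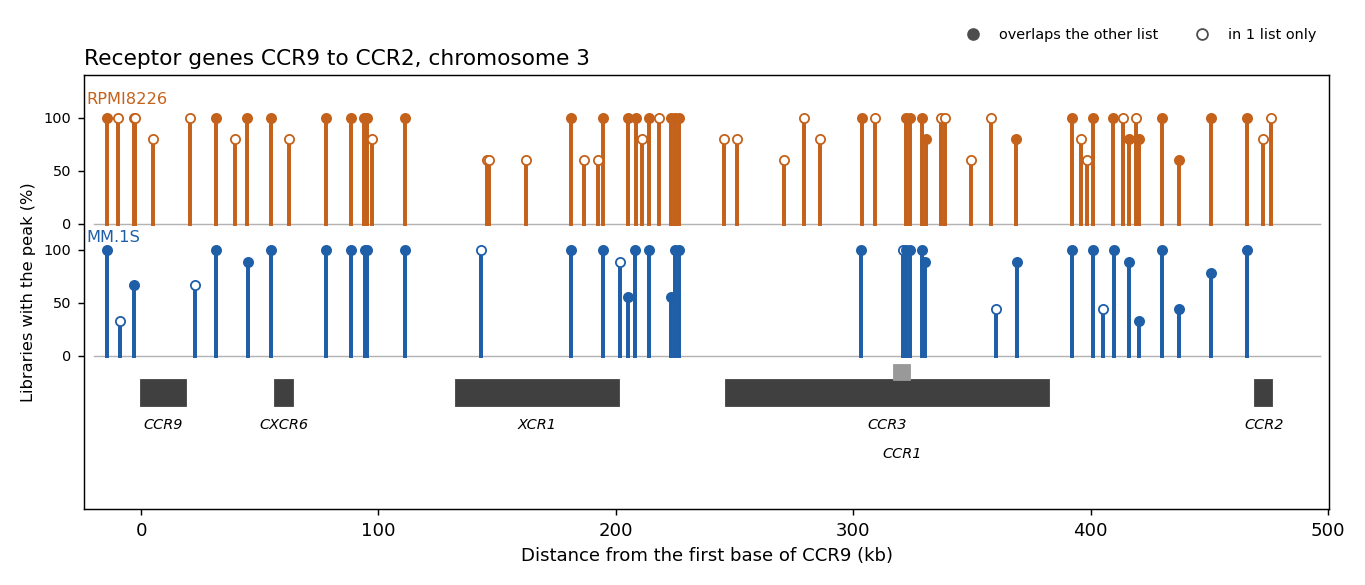
Map of the receptor cluster from the CCR9 window to the end of CCR2, with distance from the first base of CCR9 in kb on the x axis and the percent of libraries with each peak on the y axis, RPMI8226 above MM.1S and gene bodies as boxes, the lighter one being CCR1 within CCR3. Peaks between windows are drawn too, and the open points, found in 1 list only, are 30 of 63 in RPMI8226 and 7 of 40 in MM.1S.

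The members' promoters were poor in CpG, the C-G step that is dense in promoters used by many cell types. From 250 bases before to 50 after the canonical start, their median ratio of observed to expected CpG was 0.22 (quartiles 0.15 and 0.36) against 0.78 (0.42 and 0.92) for all genes. It was under 0.4 for 54 of 64 members (84.4%) and for 24.3% of all genes. Of all genes under 0.4, 44.3% carried a promoter peak in MM.1S and 41.8% in RPMI8226, whereas the 54 members stood at 55.6% (42.4 to 68.0%) and 48.1% (35.4 to 61.1%). Both shares of that background lay within the members' intervals. A promoter peak in every library was at 33.3% of these members in MM.1S (22.2 to 46.6%, background 30.2%). In RPMI8226 it was at 37.0% (25.4 to 50.4%, background 33.1%). Support at low-CpG members was thus near that of low-CpG genes in general. MM.1S-only promoter peaks were at 18.5% of these members (10.4 to 30.8%), an interval above the 9.21% of that background, and RPMI8226-only peaks at 11.1% (5.19 to 22.2%), an interval that holds its 6.77%. Of the 10 low-CpG members in MM.1S only, 6 lie in the CCL5 to CCL4L2 cluster, and without that cluster the share was 8.89% (4 of 45, 3.51 to 20.7%), close to the background. By pattern, the median ratio was 0.25 at members with a peak in both lines, 0.18 in MM.1S only, 0.29 in RPMI8226 only and 0.21 in neither. CXCR4 and CXCL16 at 0.86 and CXCL12 at 0.88 were high and had peaks in both lines, and CXCL14, at 1.1, had none.

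**Figure D5:**
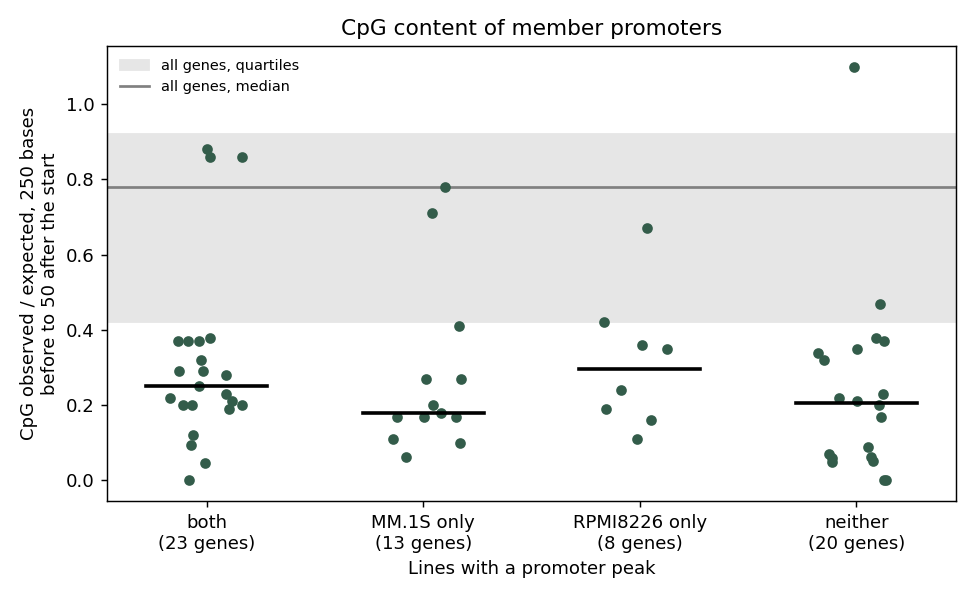
Ratio of observed to expected CpG in each member's promoter (points), by the lines with a promoter peak, with medians as black bars and the median and quartiles of all autosomal protein-coding genes as grey line and band. The medians of the 4 patterns lie between 0.18 and 0.29, under the 0.78 of all genes.

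Counted as 1 or more peaks lying directly over an annotated start, 25 members were covered in MM.1S (39.1%, background 68.6%), 19 in RPMI8226 (29.7%, background 60.9%) and 14 in both (21.9%, background 58.8%). MM.1S alone covered 11 (17.2%, 9.88 to 28.2%, background 9.79%) and RPMI8226 alone 5 (7.81%, 3.38 to 17.0%, background 2.15%). Genes of interleukins and their receptors (78 genes), another family of immune signals, had promoter peaks at 67.9% in MM.1S and 57.7% in RPMI8226, at 53.8% in both and at 14.1% and 3.85% in MM.1S only and RPMI8226 only. Their intervals overlapped those of the members for each line, 57.0 to 77.3% in MM.1S and 46.6 to 68.0% in RPMI8226.

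In the 300-base promoters, TATAAA on the gene's strand was found at 21 members (32.8%), against 7.18% of all genes and 17.4% of those with a CpG ratio under 0.4. The NF-kB consensus was found on either strand at 18 members (28.1%, against 12.7% and 8.48%) and AP-1 (TGACTCA or TGAGTCA) at 9 (14.1%, against 3.53% and 7.74%). Many of these members are neighbours and not independent. The TATAAA matches included CCL5, CCL15, CCL23, CCL18, CCL3, CCL4, CCL3L3 and CCL4L2, all of the same cluster. Those of NF-kB included CXCL1, CXCL2, CXCL3, CXCL5 and CXCL6, also of the same cluster. The ISRE-like motif, GAAA repeated after any 2 bases, matched 4 members, among them CXCL9 and CXCL10, STAT TTCCNGGAA matched CCR1 and CCL2, and ATF::CEBP TGATGNAA matched 4. In the central 200 bp of distal peaks around members, the ISRE-like motif was in 15.1% of MM.1S peaks (9.51 to 23.1%, all distal peaks 8.62%) and 12.1% of RPMI8226 peaks (7.67 to 18.5%, 7.35%). AP-1 was in 8.49% (4.53 to 15.4%, 9.2%) and 14.9% (9.95 to 21.7%, 17.0%), and NF-kB in 7.55% (6.13%) and 9.22% (6.98%). STAT was in 2.83% (0.601%) and 1.42% (0.632%), from 3 and 2 peaks, and ATF::CEBP in 1.89% (3.71%) and 2.13% (3.88%). Matches were sought on both strands, the motifs may overlap each other, and the AP-1 and NF-kB matches around members were few, 9 and 8 in MM.1S and 21 and 13 in RPMI8226.

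Around the CXCL8 to CXCL2 cluster, AP-1 matched 6 of 10 RPMI8226 distal peaks (interval 31.3 to 83.2%, all distal peaks 17.0%), 4 of them nearest CXCL6 at -19404, -13967, -3597 and 7286 bp. In MM.1S it matched 2 of 5 (11.8 to 76.9%, all distal peaks 9.2%), so the intervals of the lines overlap. This cluster was chosen after its values were seen. The ISRE-like match nearest CCR1 lay in a shared peak called in every library of both lines, at -4853 bp (MM.1S) and -4907 bp (RPMI8226).

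The pathway downstream had promoter peaks at most genes, as do genes in general. Of 41 genes that carry chemokine signals onward, such as G protein subunits, GRK kinases that switch receptors off, arrestins, PI3-kinases and RGS proteins, MM.1S had one at 40 and RPMI8226 at 37, and 37 (90.2%, 77.5 to 96.1%) had one in both, against 77.9%, 73.0% and 69.8% of all genes. The exceptions included PIK3R5, a PI3-kinase gamma regulatory subunit (8 of 9, and none in RPMI8226), PLCB2, a phospholipase (5 of 9, none) and RGS13, which had none in either. Chemokine genes outside the rule's names or chromosomes were mixed. PF4, PF4V1 and PPBP, ligands of the platelet group beside CXCL1, had none, CCRL2 had 9 of 9 and 3 of 5, and CXCR3 on chromosome X had 9 of 9 and 5 of 5.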

How the data were processed

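Omni-ATAC libraries of MM.1S (9) and RPMI8226 (5) were grouped by line and culture from their titles. Per the methods of the study, paired-end reads were aligned by the authors to hg38 (Bowtie2), multiply mapped reads were dropped, 1 read per position was retained and MACS3 called peaks library by library; thresholds, versions and the joining of peaks are not given in the sources used here. Each deposited list holds a peak's position and a whole number without a header (3 to 9 and 3 to 5), read as the number of libraries with that peak, and not normalized. Read counts per peak were not analysed here, and the library sizes that the study lists were not used, so the depth behind each peak is unknown and planned tests of TSW and CO against MONO were not run.

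Start and end positions in the lists were read as 0-based and half-open and are given 1-based. Members were matched to GENCODE release 44 genes. Promoter windows were 2500 bp on either side of any start, gene windows 20 kb beyond the body, and peaks were shared at an overlap of 1 bp. Uniqueness was the share of 31-base stretches found once in the genome. CpG and promoter motifs used 250 bases before to 50 after the start, and RefSeq promoter sequences covered 44 of 64 members. Counts stand beside all autosomal protein-coding genes or all peaks, with 95% Wilson intervals. Scripts ran in Python 3.11.15 with numpy 2.4.6, pandas 2.3.3 and scipy 1.17.1, with Biopython 1.88 for identities and were tested on simulated data. Every member could be named, and 1 member and 1 signalling gene, counted in the totals, are not reported here. Members, gene lists and motifs were chosen with earlier results of these data known.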

Additional observations from a re-analysis of the deposited data

How the results depend on the processing

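Of 91 alternative values, 62 stayed within the limits of the reported value and 29 moved. With a 5000 bp promoter window, 38 members had a promoter peak in every RPMI8226 library, 36 had one in both lines and 8 in MM.1S only. With canonical starts only, 8 were MM.1S only and 4 RPMI8226 only. With peaks called in every library only, 21 members remained in MM.1S, 12 in both lines and 13 in RPMI8226 only, and 84.0% of MM.1S and 70.4% of RPMI8226 window peaks were shared. With only peaks of median width or wider, 20 members had one in MM.1S, 19 in RPMI8226 and 11 in both. A 50 kb flank gave 278 MM.1S window peaks, distal peaks only 106 and 141, and member promoter peaks only 49 (61.2% shared) and 45 (68.9%). Overlap of 50% of both peaks gave 54.7% and 45.6% shared. Motifs sought in whole peaks gave, in MM.1S, AP-1 22.6% (all distal peaks 17.5%), ATF::CEBP 7.55% (8.91%), ISRE-like 23.6% (16.8%) and NF-kB 19.8% (14.3%), and in RPMI8226 AP-1 22.0% (23.5%) and NF-kB 15.6% (12.0%), more bases being searched. AP-1 in MM.1S thereby went from below the share of all distal peaks to above it. Counts without members under 80% unique (added after seeing the data) gave 26 members in MM.1S, 25 in RPMI8226 and 17 in both, each within 1.5 times the reported count. Without the CCL5 to CCL4L2 cluster (also added), 6 members were in MM.1S only, and the other counts stayed within 1.5 times.

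No paired analysis was possible because the lists hold no value for a single library, and for the same reason no library was left out. Each line is 1 list with its own number of libraries, so line, number of libraries and peak width cannot be told apart.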
